A study of Homo sapiens with 12 samples.

Results

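The turnover of messenger RNA in vehicle-treated cells was described from the 3 libraries of 22Rv1 cells that received DMSO (0.1% v/v) and then 100 µM 4-thiouridine for 1 h. Coding genes were kept where their 3′ UTR intervals, each read counted once per gene, held a mean of at least 100 reads over these libraries. This left 10007 of 18651 coding genes, and these held between 99.2% and 99.3% of the coding reads of each library. The genes nearest to the limit were MAN2C1, PARD6G and SCARA5, with a mean of 100 reads, on its inner side and SLC22A17, RNFT1 and RPS6KL1, with 99.667 reads, on its outer side.

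4-Thiouridine is a uridine analogue that living cells build into the RNA they are making. Alkylated 4-thiouridine is copied as if it were a cytidine, so RNA made during the labelling carries T-to-C changes in its reads while older RNA does not, and this is the basis of SLAM-seq. Where a gene's RNA level is steady, a large labelled share marks an RNA that is made and degraded quickly, as is known for transcription factors and feedback inhibitors of signalling, and a small share marks a long-lived RNA, as is known for ribosomal and metabolic genes. The share also depends on how much label a cell takes up and on how many T positions a read covers, and it is not a half-life.

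22Rv1 is a human prostate carcinoma line. Every library came from cells gene-edited to express SF3B1, a core component of the spliceosome, with the substitution C1111S, and every library was labelled, so the DMSO cells are not unedited 22Rv1 cells. The other groups of the series, used only at the end, received, for 3 h before the label, PladB at 10 nM or either of the compounds WX-02-23 and WX-02-43 at 20 µM, in 3 libraries each. Whether the replicates were grown as separate cultures is not stated in the labels, and p-values therefore reflect only how far these libraries spread, which may be technical.

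The DMSO libraries held between 15248273 and 16781703 reads in coding genes. A read with at least 1 T-to-C change is called a T>C read, and the labelled share is the number of T>C reads divided by the number of reads of a gene. Unlabelled cells were not analysed here, and the T>C reads that sequencing error or differences between the line's genome and the reference would give were not subtracted. All 12 luminal prostate markers passed the read minimum, and together they held 0.353% to 0.377% of coding reads. KRT5, KRT14 and TP63, which define basal cells, had no read in any DMSO library, and neither had the 4 endothelial markers. No blood marker, 1 of 7 basal, 1 of 8 stromal and 2 of 7 neuroendocrine markers passed the minimum, and their lists summed to at most 0.000685%, 0.00194%, 0.00217% and 0.00411% of coding reads.

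Pooled over the 10007 genes, the labelled share was 9.775% in DMSO replicate 1, 8.929% in replicate 2 and 9.474% in replicate 3, a mean of 9.39% ± 0.429 (SD, n = 3). A T>C read carried 1.79, 1.852 and 1.794 conversions in these libraries (mean 1.81 ± 0.035). Reads covered 24.3 ± 0.21 T positions on average, of which 0.701% ± 0.0243 were converted. The libraries thus differed by less than 1 percentage point in the share, with the lowest share and the highest number of conversions per T>C read in the same library, replicate 2.

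Genes were spread over nearly the whole range. The median gene had a labelled share of 9.195%, the middle 50% of genes lay between 4.978% and 15.95%, and the highest 5% began at 37.22%. A share above 50% was found for 227 genes (2.27%) and one above 75% for 30 genes, while 363 genes stayed below 1%. No T>C read was seen for 129 genes in any DMSO library. Each gene's odds of T>C against other reads were compared with those of all coding reads pooled, by edgeR's quasi-likelihood test with Benjamini-Hochberg adjustment over the 10007 genes. The odds were higher than those of the pool for 1286 genes (12.9%) and lower for 1295 genes (12.9%) at an adjusted p under 0.05, and these genes are called higher and lower below. A gene that was not called is not shown to equal the pool. Of these, 692 higher and 654 lower genes were called again in each of the 3 fits that left out 1 library.

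**Figure D1:**
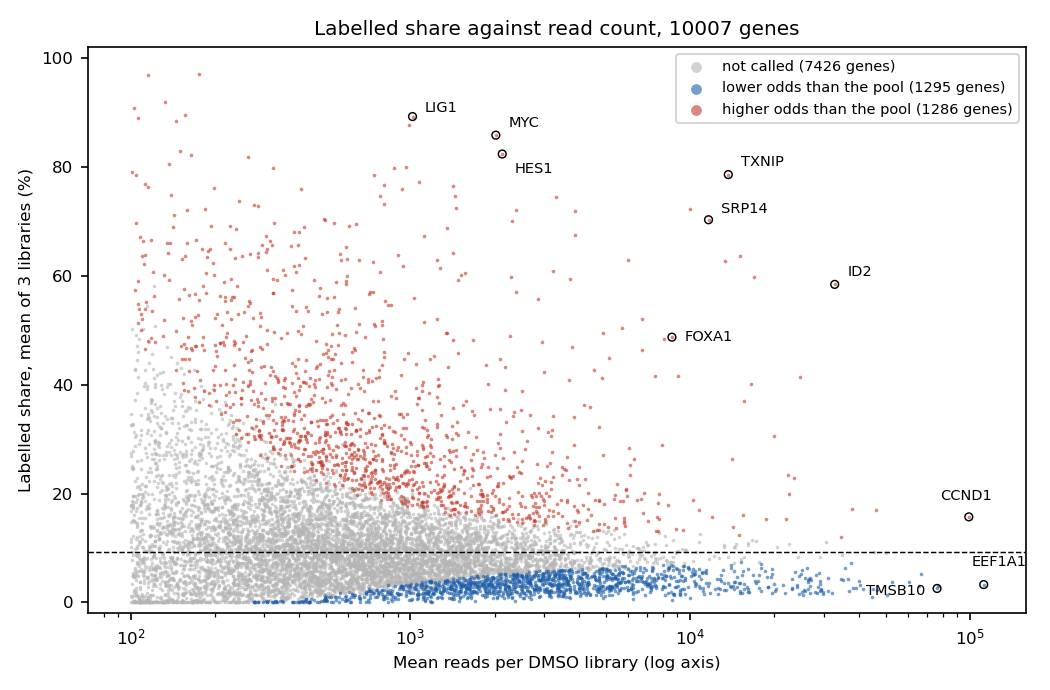
Labelled share (percent, mean of 3 DMSO libraries) against mean reads per library (log axis) for the 10007 genes, coloured by the edgeR call, with the median gene at 9.195% as a dashed line. The genes called lower lie mostly to the right, among genes with many reads, while the highest shares are found at every read level up to that of ID2 (32879 reads, 58.4%).

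Precision depended on the read count. Among the 2369 genes with 100 to 300 reads the median SD of the share between libraries was 8.52 percentage points, and it was 0.588 points among the 205 genes with at least 10000 reads. The median variance between libraries was 12.4 times the binomial counting variance in the former and 18.3 times in the latter, so counting error alone understates the error in both ranges. Across genes, the shares of any 2 DMSO libraries had Spearman correlations of 0.55 to 0.60 over 10006 genes and of 0.75 to 0.80 over the 3555 genes with at least 1000 reads. These are descriptions across genes, which are not independent replicates.

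The genes that responded first to growth signals in textbook accounts, the immediate early transcription factors, had the highest shares of the lists examined. All 25 members that passed the read minimum were called higher, against 12.9% of all genes, with shares from 17.59% to 90.86%. The median of the genes' mean shares was 62.51%. The 3 library medians were 62.03%, 58.84% and 59.65% (SD 1.66). FOS, the partner of JUN in the AP-1 factor, had shares of 100%, 100% and 72.57% in replicates 1, 2 and 3, from a mean of only 103 reads, and thus spread widely. MYC, a master regulator of cell growth, had 83.57%, 81.79% and 92.06% from 2021 reads, and its log2 odds exceeded the pool by 5.93 (SE 0.29, adjusted p = 7.6e-07). MYC reads were thus for the most part T>C reads in every library.

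EGR1, a zinc finger factor induced by growth factors, had shares of 86.43%, 79.59% and 73.8%, and KLF6, a Krüppel-like factor, 81.48%, 75.55% and 72.42%. JUN stood at 69.94%, 76.56% and 69.45%. The ranges of EGR1, KLF6 and JUN overlap, and their order is not resolved by 3 libraries. At the lower end of the list, SRF, the factor through which growth factors switch on many of the others, had 18.34%, 18.98% and 15.45%. Its call (log2 odds 1.03 above the pool, SE 0.26, adjusted p = 0.016) was lost when replicate 1 or replicate 2 was left out. That call was also lost without a term for the library, on converted T positions and against a 1.5-fold change.

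Short-lived messages of this kind are known for AU-rich elements in their 3′ UTRs, to which decay factors such as ZFP36 bind. Stretches of 30 bases from the 3′ UTRs of 6 genes called higher are printed to show how the pentamer ATTTA occurs in them. They are from GENCODE release 29 transcripts, on the strand of the transcript, with ATTTA in capitals. The files' 3′ UTR intervals of these genes are at chr14:75748128-75748937 on the plus strand for FOS, chr6:30710976-30711712 on the minus strand for IER3, chr22:38610886-38612518 on the plus strand for MAFF, chr3:39183342-39184545 on the minus strand for CSRNP1, chr5:172195093-172195764 on the minus strand for DUSP1 and chr3:50643885-50645037 on the minus strand for CISH (hg19).
FOS: tgtgtttttaATTTATTTAttaagatggat
IER3: aattaatATTTAtatgtATTTAtgtacgtc
MAFF: ggctcctagaATTTATTTAtttcctgactt
CSRNP1: aattctctggATTTATTTAtttgttttaac
DUSP1: gctggtccttATTTATTTAacttcacccga
CISH: tatacactATTTATTTATTTAttctccttg
Counted from the first base after the stop codon, the stretch of FOS spans bases 634 to 663, that of DUSP1 bases 93 to 122 and that of CISH bases 485 to 514. The stretch of CISH holds 3 overlapping copies and those of FOS, MAFF, CSRNP1 and DUSP1 hold 2 overlapping ones. The 2 copies of IER3 lie apart. Stretches of the same length from JUN, JUNB, EGR1, NFKBIA, SPRY1, SMAD7 and RGS2, also called higher, held 1 copy each. The labelled shares of these genes were 90.86% for FOS, 79.77% for DUSP1, 63.43% for IER3, 56.97% for CSRNP1, 51.89% for CISH and 41.05% for MAFF, and the call of CISH was lost without replicate 1 or replicate 2. The pentamer itself is common: it lies in the last 300 bases of 51.5% of the 6812 member 3′ UTRs that were at least that long, and in 77.3% of 22 such 3′ UTRs of the immediate early list. Lists with high shares described below differed in this. The pentamer lay in 70.8% of 24 feedback inhibitors, but in 46.4% of 28 luminal lineage factors. It lay in 40% of 15 HOX genes and 37.5% of 8 ZFP36 and BTG/TOB genes. IER2, an immediate early gene with a share of 59.35% but 62.67% multimapping reads, had no ATTTA in its 3′ UTR.

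Inhibitors that signalling pathways induce against themselves came next. Of 31 members that passed the minimum, 27 were called higher (87.1%) and 0 lower, against 12.9% each of all genes. The median share was 47.34% (SD of library medians 3.18). In this list, as among the immediate early factors and the ZFP36 and BTG/TOB genes below, 0 members were lower at an unadjusted edgeR p under 0.05, by DESeq2 or by limma. On the share of converted T positions 1 member of the 3 lists, PHLDA2, was called lower. SPRY1, a Sprouty inhibitor of receptor tyrosine kinase signalling, had shares of 94.85%, 81.92% and 98.82% from a mean of 132.7 reads. SMAD7, which blocks signalling from TGF-β receptors, had 80.21%, 98.7% and 83.87%. DUSP6, a phosphatase of the ERK kinases, had 72.79%, 81.11% and 65.46%, and NFKBIA, the inhibitor of NF-κB, 68.17%, 75.69% and 71.86%. Every value of these genes lay far above the pooled share of its library. The middle member was DUSP4, another phosphatase of MAP kinases, with 49.9%, 42.41% and 49.7% (log2 odds 3.11 above the pool, SE 0.33, adjusted p = 1.3e-04). PHLDA2, a pleckstrin homology protein with 12154 reads, was the lowest, with 8.597%, 9.201% and 7.797%, and it was not called on T>C reads (adjusted p = 0.42) but was lower on converted T positions (log2 odds −0.54, edgeR adjusted p = 0.010).

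Transcriptional repressors of the ID, HES and HEY families were split. HES1, a target of Notch, had shares of 80.76%, 85.59% and 80.69%, and the ID proteins, which tie up helix-loop-helix factors, were high as well, with 72.24% ± 0.490 for ID1, 58.41% ± 2.04 for ID2 and 59.75% ± 1.06 for ID3 (SD, n = 3). The values of ID1 did not overlap those of ID2 or ID3. At the other end HES4 had 2.749%, 2.632% and 3.588% and was called lower (log2 odds −1.77 against the pool, SE 0.39, adjusted p = 0.0082), though not without replicate 1 or on converted T positions. In all, 6 of the 9 members were called higher (66.7%) and 1 lower (11.1%), against 12.9% each of all genes. The median was 37.56%.

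Genes whose proteins hasten the decay of other messages had high labelled shares themselves. Of the 8 ZFP36 and BTG/TOB genes, which recruit the CCR4-NOT deadenylase, 7 were called higher (87.5%) and 0 lower. Their median was 45.56% (SD of library medians 1.47). TOB1 had 74.77%, 66.79% and 68.75%, and ZFP36L1 43.88%, 41.56% and 42.73%. ZFP36 had 78.89%, 53.47% and 59.62%, from 267.7 reads. The general decay machinery lay elsewhere, with 12 of its 65 members called higher (18.5%) and 5 lower (7.69%), against 12.9% each of all genes. Its median of 9.541% was near that of all genes. CNOT4, a ubiquitin ligase associated with the deadenylase, led it with 48.06%, 38.31% and 32.85%, and PABPC1, the main poly(A)-binding protein, was lowest with 2.347%, 1.46% and 2.508%. PUM2, a Pumilio protein that binds 3′ UTRs and promotes decay, was called higher, with 27.33% ± 2.53.

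**Figure D2:**
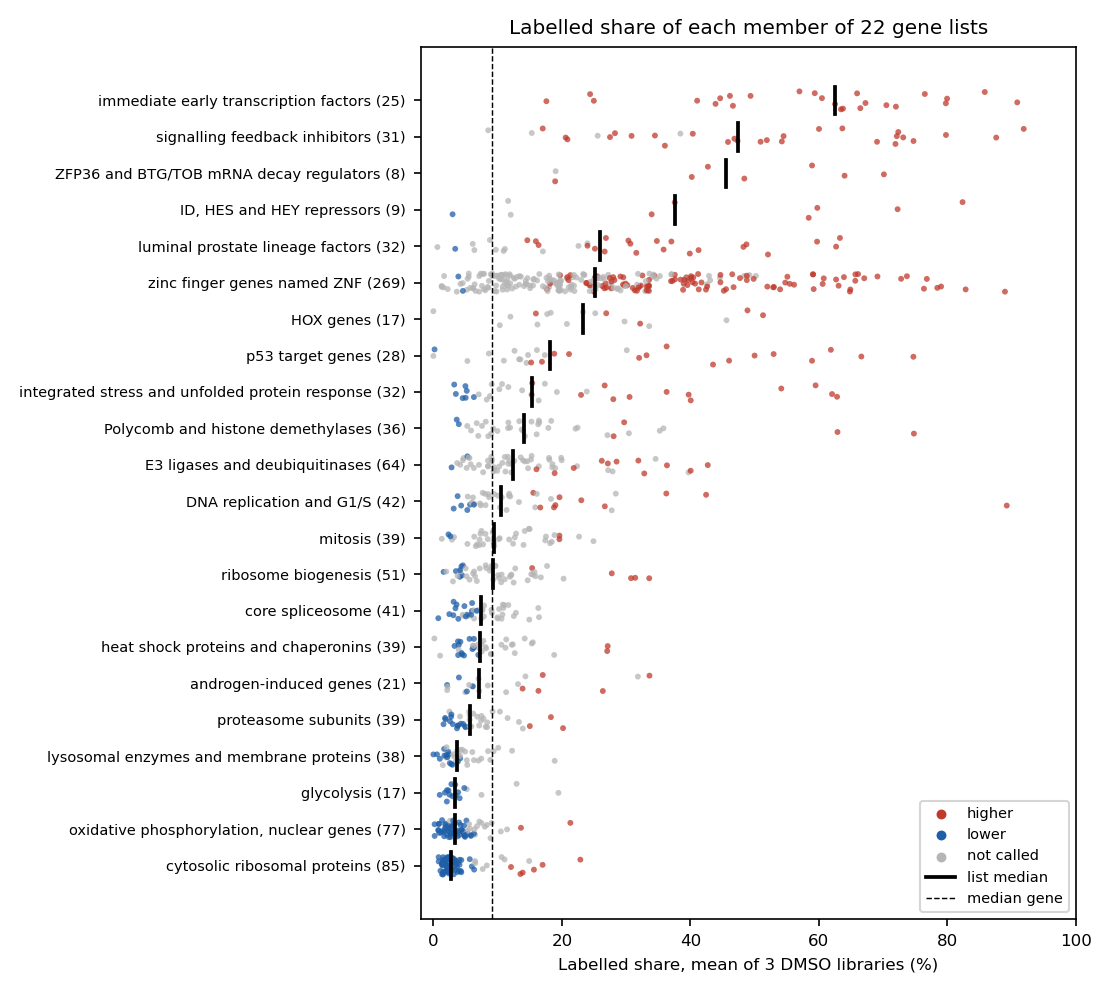
Labelled share (percent, mean of 3 DMSO libraries) of every member of 22 gene lists, 1 point per gene, coloured by the edgeR call, with the number of members in parentheses, list medians as black bars and the median gene as a dashed line. The medians fall from 62.51% for immediate early transcription factors to 2.722% for cytosolic ribosomal proteins, and single members reach far from their list's median.

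Transcription factors of the luminal prostate lineage mostly had high shares. Of 32 members, 21 were called higher (65.6%) and 1 lower (3.12%), against 12.9% each of all genes. The median was 25.9% (SD of library medians 3.77). FOXA1, a pioneer factor that opens chromatin in luminal cells, had 46.18%, 49.37% and 50.63% from 8610 reads (log2 odds 3.19 above the pool, SE 0.11, adjusted p = 1.1e-07). GATA3, a zinc finger lineage factor, had 55.98%, 64.62% and 69.19%, GATA2, which acts with FOXA1, 38.57%, 45.53% and 39.7%, and SOX9 56.26%, 60.4% and 62.46%. SPDEF, an ETS factor of luminal cells, had 1.661%, 3.575% and 4.965%, and its call as lower was lost when any library was left out. That call was also lost by limma, on converted T positions and against a 1.5-fold change.

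Genes known to be induced by androgen did not share the pattern of the lineage factors. Among 21 such genes 5 were called higher (23.8%) and 4 lower (19%), against 12.9% each of all genes. Their median was 7.143%, below that of all genes. KLK4, a kallikrein protease, had 3.708%, 3.414% and 4.808%. ZBTB16, a zinc finger repressor, had the highest value of the list, with 38.18%, 37.54% and 25.16%. Its reads covered 5.936 T positions on average and it had 0.717 conversions per T>C read. The call of ZBTB16 was lost in the alternative based on covered T positions, by limma and without replicate 1 or 2. KRT8, a keratin of luminal cells, had a share of 1.65%, 2.387% and 2.722%.

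In the integrated stress and unfolded protein response, 13 of 32 members were called higher (40.6%) and 7 lower (21.9%), against 12.9% each of all genes. DNAJB9, a chaperone that restrains the stress sensor IRE1, had 56.43%, 60.59% and 71.45%, and PPP1R15A, which ends the stress-induced block of translation, had 56.65%, 58.98% and 62.8%. DDIT3, the factor also known as CHOP, had 44.43%, 40.6% and 34.17%. HSPA5, the main chaperone of the endoplasmic reticulum, lay near the list's median of 15.34% with 15%, 15.24% and 15.65% from 22039 reads, above the pool in every library (log2 odds 0.79, SE 0.09, adjusted p = 2.1e-04). The chaperones HSP90B1 and CALR were called lower, with 4.558% ± 0.374 and 5.03% ± 0.823. The lowest member, PHGDH, the first enzyme of serine synthesis, had 2.933%, 2.899% and 3.901%.

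In the NRF2 pathway the factor and its iron-storage targets lay far apart. NFE2L2, which encodes NRF2 itself, had the highest share of 26 members, with 26.03%, 27.3% and 24.52%, and the iron-storage genes FTH1 and FTL, which it induces, were called lower with 2.646% ± 0.332 and 1.913% ± 1.01. Of this list 4 genes were called higher (15.4%) and 7 lower (26.9%), against 12.9% each of all genes. Reads of FTH1 were 78.07% multimapping, and its count is uncertain.

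Of 28 targets of p53, 15 were called higher (53.6%, against 12.9% of all genes) and 1 lower (3.57%, against 12.9%), around a median of 18.07%. Of 17 members of the BCL2 family, 5 were called higher (29.4%) and 2 lower (11.8%), around 17.14%. AEN, a nuclease of apoptosis, had 72.1%, 79.26% and 72.75%, and PMAIP1, the BH3 protein NOXA, 56.52%, 68.44% and 60.62%. CDKN1A, the cyclin-dependent kinase inhibitor p21, was much lower, with 17.54%, 17.58% and 15.57% from 3947 reads, and still above the pool (log2 odds 0.96, SE 0.18, adjusted p = 0.0030). MCL1, a survival factor known for its rapid turnover, had 22.8%, 29.02% and 27.3%. BNIP3L, which marks mitochondria for removal, had 2.41%, 1.632% and 4.726% and was called lower.

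Zinc finger genes named ZNF, most of which encode DNA-binding repressors, formed the largest list. Of 269 members, 105 were called higher (39%) and 2 lower (0.743%), against 12.9% each of all genes. The median of the genes' mean shares was 25.09%, and the library medians were 24.69%, 24.29% and 23.01% (SD 0.876). They had few reads, with a median of 300.3 against 639 for all genes, and single values were poorly fixed: ZNF280D, the middle member, had 62.26%, 0% and 13.0%. ZNF503, a repressor with 13332 reads, had 64.66%, 59.79% and 63.57%. Among 17 HOX genes, edgeR called 5 higher (29.4%) and 0 lower, around a median of 23.28%. Lower were 0 at an unadjusted edgeR p under 0.05, and 1, HOXC4, by DESeq2, by limma and by edgeR without the library term. Polycomb and histone demethylase genes had a median of 14.12%. Of 36, 4 were called higher (11.1%) and 2 lower (5.56%), against 12.9% each of all genes. For E3 ligases and deubiquitinases the median was 12.39%, with 11 of 64 higher (17.2%) and 2 lower (3.12%). SIAH1, a RING ubiquitin ligase, had 35.33%, 46.88% and 45.91%.

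Cell cycle lists had medians close to that of all genes, while their calls differed. Mitotic genes had a median of 9.481%, with 2 of 39 called higher and 2 lower (5.13% each, against 12.9% each of all genes). For DNA replication and G1/S genes the median was 10.51%, with 10 of 42 called higher (23.8%) and 6 lower (14.3%). CCNE2, a cyclin of S phase entry, had 46.38%, 32.51% and 48.44%, and CDC25A, the phosphatase that activates its kinase, 27.24%, 22.98% and 29.81%. TYMS (5.28%), TK1 (3.773%) and POLE (3.159%) were called lower, and each lost that call without replicate 3. LIG1, the highest member of the replication list (89.23%), had 1.164 conversions per T>C read and is taken up below. CDKN1B, the inhibitor p27, had 48.9%, 45.5% and 46.28% from 3795 reads (log2 odds 3.08 above the pool, SE 0.14, adjusted p = 5.4e-07). CCND1, a G1 cyclin and the gene with the second highest read count (99161), had 15.55%, 16.66% and 14.96%, and all 3 values exceed the pooled shares of the libraries.

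Cytosolic ribosomal proteins, nuclear genes of oxidative phosphorylation and glycolysis had the smallest median shares of the lists examined. Their reads covered a median of 12.54, 21.88 and 24.16 T positions, against 25.69 for all genes, so this order depends in part on coverage. A median of 0.2123%, 0.2383% and 0.2245% of covered T positions were converted, against 0.6295% for all genes. On that measure the lysosomal genes below were the lowest list, with 0.1833%. Of 85 cytosolic ribosomal protein genes, 71 were called lower (83.5%) and 6 higher (7.06%), against 12.9% each of all genes. Their median share was 2.722% (SD of library medians 0.141). RPLP0, a protein of the ribosomal stalk, had 4.077%, 3.351% and 3.896% from 52764 reads, and RPL19 3.044%, 1.881% and 3.242%. Among those called higher were RPL30 (17.0%), RPL31 (15.65%), RPL35A (13.9%), RPL38 (13.54%) and RPS29 (12.08%). On the share of converted T positions instead of T>C reads, RPL30 and RPS29 turned to lower and RPL38 and RPL35A were not called. RPL30, RPS29, RPL38 and RPL35A had 0.628, 0.229, 0.539 and 1.127 conversions per T>C read. The call of RPS29 was also lost without replicate 1 and that of RPL38 without replicate 3 or without the library term. Against a 1.5-fold change, RPL31, RPL35A, RPL38 and RPS29 were not called. Of the 85 genes, 37 had over 10% multimapping reads, which are shared with near-identical copies, and their values are uncertain.

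Nuclear genes of oxidative phosphorylation had a median of 3.338%. Of 77, 59 were called lower (76.6%) and 2 higher (2.6%), against 12.9% each of all genes. SDHC, a subunit of succinate dehydrogenase, had 3.872%, 3.899% and 2.242%, and SDHD, another subunit of that complex, led the list with 22.56%, 21.83% and 19.58%. Multimapping reads made up 23.57% of the reads of SDHC and 36.61% of those of SDHD. The other gene called higher was NDUFB4, a subunit of complex I (13.63% ± 2.64), whose call was lost without replicate 1 or replicate 3. That call was also lost with TMM factors, without the library term, by limma and against a 1.5-fold change. On converted T positions the log2 odds of NDUFB4 were 0.02 (edgeR adjusted p = 0.95). In glycolysis edgeR called 13 of 17 genes lower (76.5%) and 0 higher. Higher were 1 at an unadjusted edgeR p under 0.05, 1 by DESeq2 and 0 by limma. The glucose transporter SLC2A1 was called higher by edgeR without the library term (adjusted p = 0.026) and with a minimum of 500 reads (adjusted p = 0.042). GAPDH had 2.522%, 2.008% and 2.994% from 45157 reads, and GPI 2.904%, 3.488% and 3.796%. Among the 38 lysosomal genes edgeR called 14 lower (36.8%) and 0 higher, around a median of 3.752%. Of these, 0 were higher at an unadjusted edgeR p under 0.05, 1 by DESeq2 and 0 by limma. Of the 46 genes of the secretory pathway 21 were lower (45.7%) and 1, SRP14, higher (2.17%), around 6.541%. SRP14 had 1.045 conversions per T>C read and is taken up below. Proteasome subunits had a median of 5.641%, with 14 of 39 lower (35.9%) and 3 higher (7.69%). The core spliceosome had a median of 7.455%, with 14 of 41 lower (34.1%) and 0 higher by edgeR. In the spliceosome 2 genes were higher at an unadjusted edgeR p under 0.05, 5 by DESeq2 and 0 by limma. U2AF2, a factor that recognises 3′ splice sites, was called higher by edgeR without the library term and with a minimum of 500 reads.

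Some families held members far apart. Of 39 heat shock proteins and chaperonins, 13 were called lower (33.3%) and 2 higher (5.13%), against 12.9% each of all genes. HSP90AB1, the constitutive cytosolic HSP90, had 4.504%, 4.107% and 4.59% and was called lower. HSPA8, the constitutive HSP70, of whose reads 82.45% were multimapping, had 10.02%, 10.62% and 13.03% and was not called (adjusted p = 0.14), but it was higher on converted T positions (edgeR adjusted p = 0.015) and by DESeq2 (adjusted p = 0.039). Splicing regulators of the SR and hnRNP families had a median of 9.36%, which fell to the other side of the median gene without replicate 2. CLK1, a kinase of SR proteins, had 34.88%, 66.55% and 64.71%, and HNRNPA2B1 3.296%, 4.314% and 4.007%. SF3B1, the edited gene, had 13.07%, 11.67% and 7.692% from 1087 reads and was not called (adjusted p = 0.76).

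**Figure D3:**
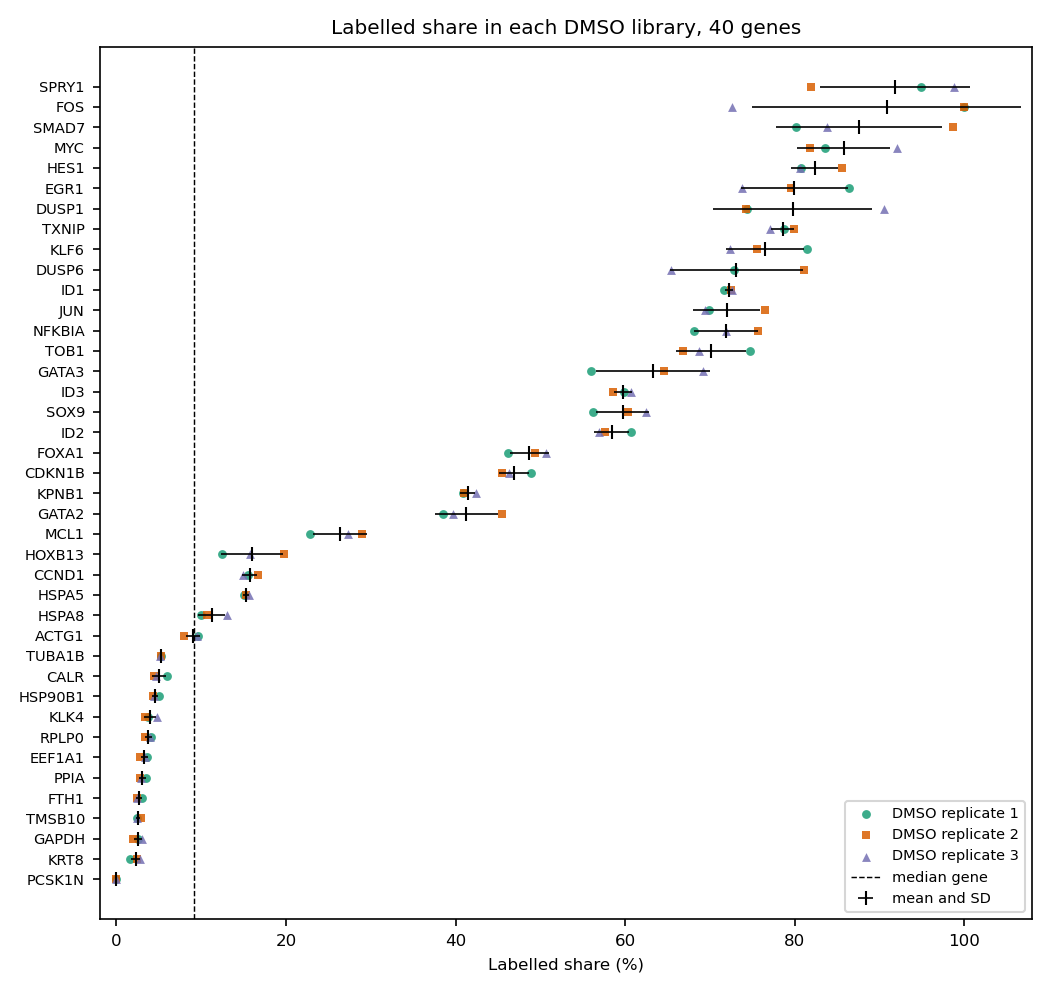
Labelled share (percent) of 40 of the genes named in the text in each of the 3 DMSO libraries (symbols), with the mean and SD as black bars and the median gene as a dashed line. Regulators such as MYC, HES1, TXNIP and ID1 lie above 70% in every library and GAPDH, TMSB10 and KRT8 below 3%; the bar of FOS passes 100% because the SD is drawn symmetrically.

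The 10 genes with the most reads held 4.45% of all member reads and 2.56% of T>C reads. EEF1A1, the translation elongation factor with the highest count (112091 reads), had a share of 3.626%, 2.83% and 3.408%, although 99.06% of its reads were multimapping. TMSB10, an actin-binding thymosin, had 2.466%, 2.842% and 2.42%, and TUBA1B, an α-tubulin, 5.27%, 5.304% and 5.145%. Of the 10 genes, 8 were called lower, CCND1 was called higher and ACTG1, the cytoplasmic γ-actin, was not called (9.02% ± 0.865).

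The 10 genes with the most T>C reads, a set chosen after values were seen, held 7.13% of T>C reads and 1.78% of reads. ID2, of whose reads 24.26% were multimapping, came first with 1.28% of all T>C reads from 0.206% of reads, before CCND1 (1.04%), TXNIP (0.716%), KPNB1 (0.68%) and ID3 (0.673%). TXNIP, which inhibits thioredoxin and glucose uptake, had shares of 78.74%, 79.9% and 77.09% from 13693 reads. RGS2, a brake on G protein signalling, had 63.24%, 63.86% and 63.85%, and KPNB1, the nuclear import receptor importin β, 40.88%, 40.97% and 42.39%. The 3 values of TXNIP, RGS2 and KPNB1 lay within 3 percentage points of each other. The 227 genes with shares above 50% held 10.6% of T>C reads from 1.57% of reads.

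At the lowest end, genes without a T>C read could be limited only by their depth. PCSK1N, an inhibitor of prohormone convertase, had 0 T>C reads among 3551 reads of the 3 libraries, which allows a share of up to 0.0845%. TRAPPC6A, a subunit of a vesicle tethering complex, had 0 among 2126 reads (up to 0.141%), and ISYNA1, the enzyme that begins inositol synthesis, 0 among 1555 (up to 0.193%). These limits rest on 3 counts and cover counting error only. The reads of PCSK1N, TRAPPC6A and ISYNA1 covered 8.66, 15.6 and 10.5 T positions on average, all below the 25.69 of the median gene.

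The number of conversions per T>C read varied beside the share. The median gene had 1.739, and across 9878 genes this number had a Spearman correlation of 0.34 with the labelled share and of 0.51 with the covered T positions per read. Of genes with a mean of at least 50 T>C reads and at most 10% multimapping reads, DNA2, a helicase and nuclease of replication, had the most, with 3.764, and NACA2, a copy of a ribosome-associated factor, the fewest, with 0.048. A value under 1 means that the deposited conversions of an interval number fewer than its T>C reads. SELENOW, a small selenoprotein, also lay there, with 0.0668 conversions per T>C read and shares of 58.92%, 57.4% and 66.05%. On the share of converted T positions, NACA2, SELENOW and PSMB4, a proteasome subunit with 0.385 conversions per T>C read, turned from higher to lower.

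A group of genes combined a high share with few conversions. Among the 227 genes with shares above 50%, 27 had fewer than 1.3 conversions per T>C read, a limit set after values were seen. SRP14, a subunit of the signal recognition particle, had shares of 72.25%, 68.78% and 69.8% with 1.045 conversions, and LIG1, the DNA ligase of replication, 83.84%, 95.61% and 88.24% with 1.164. The 2 highest shares of all genes with at most 10% multimapping reads, 97.08% for ATP5L2 and 96.86% for PABPC3, belong here, with 1.077 and 1.06 conversions. MYC, with 2.876, HES1, with 2.681, and TXNIP, with 2.439, lay on the other side. Whether the T>C reads of the 27 genes come from label or from a difference between the line's genome and the reference was not tested.

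**Figure D4:**
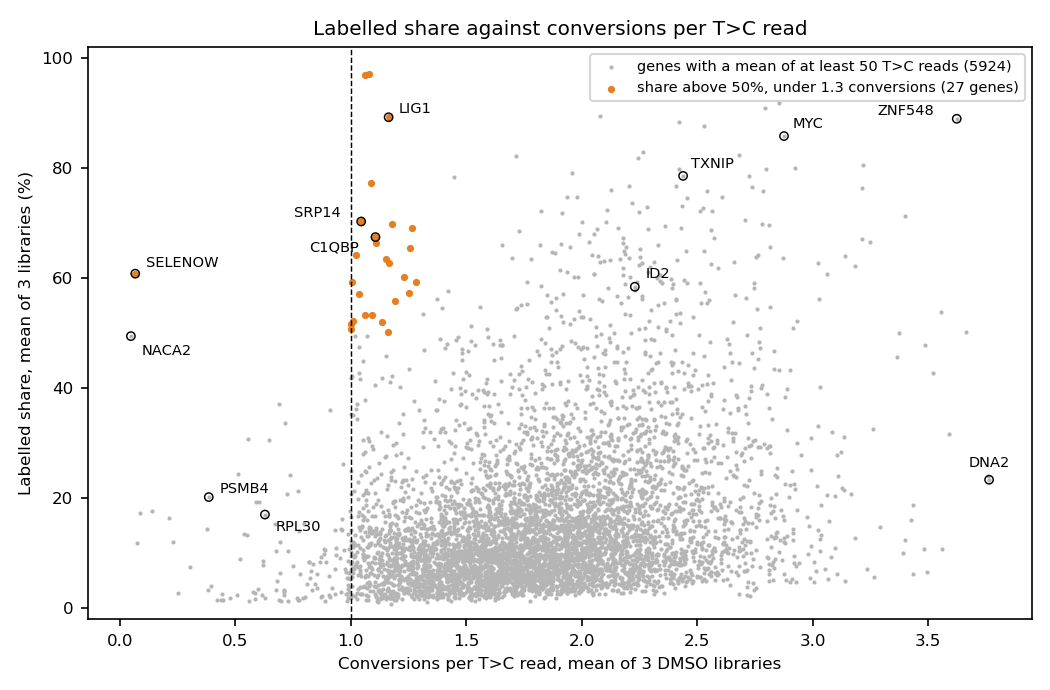
Labelled share (percent, mean of the 3 DMSO libraries) against conversions per T>C read, for the 5924 genes with a mean of at least 50 T>C reads. Conversions and T>C reads were each summed over the 3 libraries before division. The dashed line marks 1 conversion per T>C read. The 27 genes with shares above 50% and under 1.3 conversions (orange) lie between 1 and 1.281 conversions, except SELENOW at 0.0668, while MYC has 2.876 and TXNIP 2.439.

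Genes with high shares had fewer exons. When the 10007 genes were ranked by share and cut into 10 equal groups, the median share rose from 1.457% to 37.22%. The median number of exons was 9 in the lowest group and 5 in the highest, over the 8040 genes matched to a GENCODE transcript. Single-exon genes made up 0.492% of the lowest and 6.87% of the highest group. Of the 140 single-exon genes, 46.4% were called higher and 3.57% lower, with a median share of 23.03%. Among the 1844 genes with 16 or more exons, 5.59% were called higher and 9.54% lower, with a median of 8.278%. Across genes, exon number and share had a Spearman correlation of −0.17.

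Abundance fell with the share except at its lowest end. The median gene of the highest group had 342.3 reads, that of the second lowest group 1012 and that of the lowest group 496.7. Ranked by reads instead, the 10 groups went from a median share of 12.64% for the genes with fewest reads to 5.663% for those with most, and the Spearman correlation of reads and share was −0.21. The lists differ in reads as well, with medians of 15020 for cytosolic ribosomal proteins, 871.7 for immediate early factors and 639 for all genes, and the part of abundance in the list differences was not tested.

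The 3′ UTRs of genes with high shares were longer and richer in T. The median interval length was 549 bases in the lowest group and 1740 in the highest, and a read covered a median of 19.01 and 27.58 T positions. A read with more T positions has more chances to show a conversion, and share and covered T positions had a Spearman correlation of 0.27. Covered T positions and conversions are counted per interval. In some genes the conversions number fewer than the T>C reads, so the covered positions need not be all those behind a T>C read. On the share of converted T positions, which takes the covered positions into account, 978 genes were higher and 1113 lower. Of the 1286 and 1295 genes of the main test, 924 and 942 were called again in the same direction and 5 in the opposite one.

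Decay motifs were counted on the transcript strand of the 3′ UTRs, overlapping copies included. ATTTA lay in the last 300 bases of 32% of 3′ UTRs in the group with the lowest shares and of 61% in the highest, against 51.5% of all 6812. Genes without any ATTTA were called lower in 24.1% and higher in 6.77% of 2276 cases, and genes with over 4 copies per 1000 bases in 8.26% and 14.2% of 1307. When the 3′ UTRs were cut into 3 equal groups by the T content of those 300 bases, the group richest in T held ATTTA in 69.5% of genes called higher, 67% of genes called lower and 73.3% of the rest. The middle group held it in 55.9%, 50.5% and 56.4%, and the group poorest in T in 31.8%, 18.2% and 28.9%. The longer AU-rich run TATTTAT lay in 6.09% of the ends in the group with the lowest shares and in 18.6% in the highest, against 12.3% of all. It was in 21.9% of genes called higher, 10.4% of genes called lower and 19.1% of the rest in the group richest in T, in 11.5%, 12% and 12.9% in the middle group, and in 8.07%, 4.03% and 5.64% in the poorest. Every copy of TATTTAT holds an ATTTA. No test was made of these differences.

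TGTANATA, the sequence that Pumilio proteins bind, where N is any base, was counted in the same way. It lay in the last 300 bases of 6.69% of 3′ UTRs in the lowest group and of 17.3% in the highest, against 11.5% of all. In the group richest in T it was in 25.2% of genes called higher, 9.57% of genes called lower and 15.8% of the rest. In the middle group the shares were 15.7%, 6.94% and 11.7%, and in the group poorest in T 6.28%, 3.75% and 6.1%. A match is a run of letters and says nothing of binding.

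**Figure D5:**
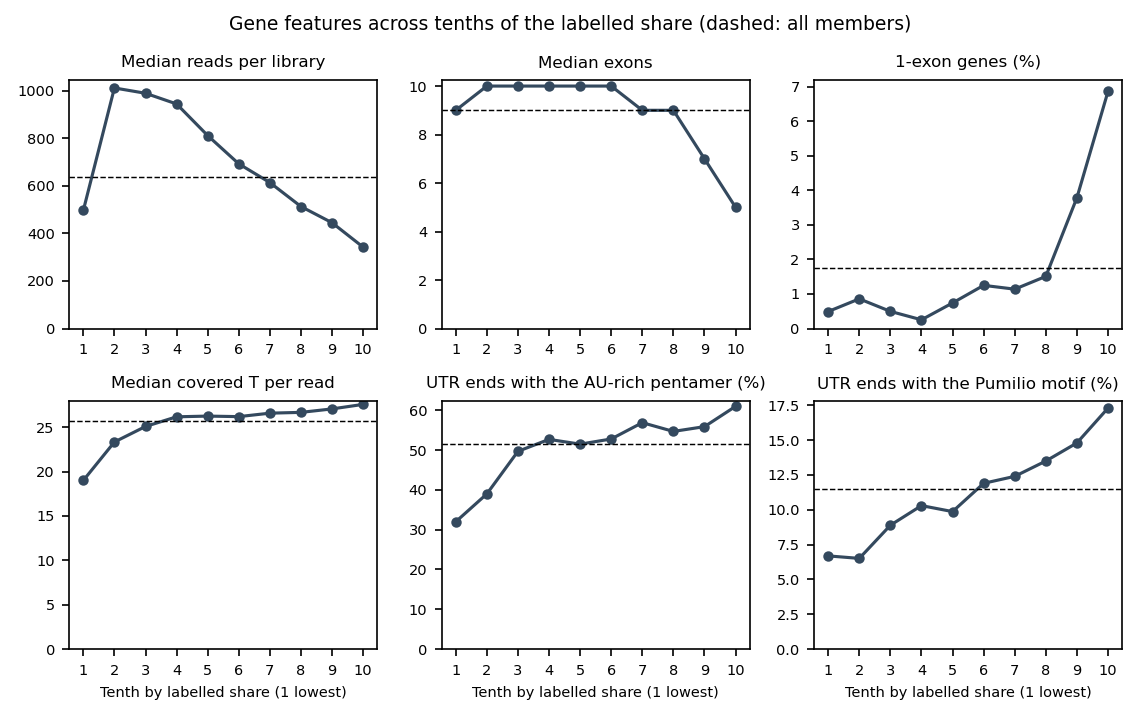
Median reads, median exon number, percent of single-exon genes, median covered T positions per read, and percent of 3′ UTR ends (last 300 bases) with ATTTA (AU-rich pentamer) or TGTANATA (Pumilio motif) in 10 equal groups of genes ranked by labelled share, with all members as dashed lines. Exon number falls from 9 to 5 between the lowest and the highest group, and the Pumilio motif rises from 6.69% to 17.3%.

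The baseline was tested against the treated groups for 1 measure, the conversions per T>C read over the same 10007 genes, and shares are given beside it as a description. DMSO libraries had 1.79, 1.852 and 1.794, WX-02-23 libraries 1.985, 1.993 and 1.972, WX-02-43 libraries 2.405, 2.401 and 2.409, and PladB libraries 1.364, 1.365 and 1.418. No value of a treated group overlapped the DMSO values. The differences from DMSO were 0.171 for WX-02-23, 0.593 for WX-02-43 and −0.43 for PladB, and each had p = 0.1 in an exact two-sided permutation test (adjusted p = 0.1 over the 3 comparisons), which is the smallest p that 3 against 3 libraries allow. All comparisons share the DMSO libraries. Covered T positions per read were 24.1 to 24.5 in DMSO and 23.46 to 24.14 in the other groups. The median gene's share was 9.234% with WX-02-23, 8.628% with WX-02-43 and 4.11% with PladB, against 9.195% with DMSO. As a description across genes, the order of the shares had Spearman correlations with DMSO of 0.78, 0.79 and 0.62.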

How the data were processed

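Iodoacetamide alkylated the RNA, and a QuantSeq kit was used for libraries of 3′ ends, per the labels' protocols. The labels' molecule field says genomic DNA, against these protocols, and the reads were treated as RNA. Per the file headers, slamdunk 0.4.3 counted reads over 3′ UTR intervals, and the submitters' processing notes name hg19 as the build. The mapping settings are not given in the sources used here. The deposited files hold, per interval, counts of reads, T>C reads, multimapping reads, covered T positions and conversions. The authors' CPM values served only to obtain library totals, and the deposited conversion rate, a fraction of covered T positions, was recomputed from the counts. No molecular identifiers are recorded in the files, so reads may not be independent molecules and limits cover counting error only.

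Of 29255 intervals, the 23086 of coding transcripts were used. Of overlapping intervals of a gene, the set without overlap that held the most DMSO reads was summed, 42 of 43 gene names altered to spreadsheet dates were looked up again by accession in the RefSeq gene table, and 24 duplicate intervals on chromosome Y were left out. A labelled share is T>C reads over reads, and means and SDs are over the 3 DMSO libraries. A list's median is that of its genes' mean shares and can lie outside the 3 library medians, whose SD is given beside it. T>C and other reads of each library were fitted in edgeR 4.0.16 (R 4.3.3; glmQLFit and glmQLFTest) with a term for the library and a term for the kind of read, with column totals over coding genes as library sizes, and p-values were adjusted over 10007 genes. Conversions per T>C read were compared between groups by exact permutation. Alternatives used DESeq2 1.42.0, limma 3.58.1 (log2 scale, pseudocount 0.5), a test against a 1.5-fold change, other minimums (20 and 500 reads), TMM factors, no library term, plain sums, genes without over 10% multimapping reads, covered T positions, and 1 library fewer. The fit was tested on simulated counts with 200 changed genes, and most of these changes were not called.

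3′ UTR sequences and exon numbers came from GENCODE release 29, matched by name and by a length within 30 bases or 10% and a T content within 2 percentage points. This matched 8040 of 10007 genes (80.3%), of which 4717 had the same length. No hg19 genome was used here. The motifs ATTTA and TGTANATA, and a longer AU-rich run spelled out with its values, were counted on the transcript strand.

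Named genes were the 12 highest and 12 lowest shares among genes with at most 10% multimapping reads, the highest, middle and lowest member of each list, the 10 genes with most reads, the 5 with most and 5 with fewest conversions per T>C read (mean of at least 50 T>C reads), the 5 most variable genes with at least 500 reads, and SF3B1 and FOXA1. Some genes that the rule or the lists hold are not reported here. Of the rest, the genes that the text turns on are printed. The 10 genes with most T>C reads and further members of the lists were named after their values were seen. The members and gene lists were chosen with earlier results of these data known.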

Additional observations from a re-analysis of the deposited data

Results flagged for a closer look

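A T>C signal was also present in data outside the coding genes. The files hold 5460 intervals of noncoding transcripts, which were not used above. In the DMSO libraries 24.59%, 24.1% and 23.7% of the reads in these intervals were T>C reads, a mean of 24.13% ± 0.445 (SD, n = 3), against 9.39% ± 0.429 in the coding genes. Every noncoding value lay above every coding value. The noncoding intervals were summed with no read minimum and with overlapping intervals included, unlike those of the coding genes. With plain sums the pooled coding share was 9.196%. The background of this signal in unlabelled cells was not analysed here.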

How the results depend on the processing

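The counts of genes with higher (1286) and lower (1295) odds ranged from 849 to 1102 and from 797 to 1104 when 1 library was left out, with the fewest calls without DMSO replicate 1, and were 2148 and 2723 by DESeq2. They stayed within 1.5 times under the other alternatives, among them TMM factors (1229 and 1445), limma (879 and 1354), a test against a 1.5-fold change (959 and 901) and a minimum of 500 reads (889 and 1313). Without the term for the library, as a fit with no replicate block, they were 1560 and 1464. The median log2 odds of all genes, −0.266, moved to −0.0417 in that fit, to −0.384 with a minimum of 20 reads and to −0.469 on covered T positions. With noncoding intervals added, the pooled share in DMSO was 11.38% and conversions per T>C read 2.022. On covered T positions the log2 odds reversed for PSMB4 (−1.29), NACA2 (−1.67), SELENOW (−1.75), RPL30 (−0.42), RPL38 (−0.44) and RPS29 (−2.32). Each has under 1 conversion per T>C read, and the cause was not tested. Of 175 named genes with a call, 39 lost it without 1 of the libraries and 129 kept it under every alternative in which they were tested. Of 47 lists with members, 26 had medians above the median gene, and 10 changed sides under at least 1 alternative, all with main differences of at most 5.81 percentage points. In the comparison of groups, replicate numbers did not pair the libraries: same-numbered deviations from the group means correlated at −0.03 to 0.04. With the replicate block the differences were 0.171, 0.593 and −0.43 (exact p = 0.25, the smallest that 3 pairs allow). Depth limits single shares most below 300 reads, where the median SD was 8.52 percentage points.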

Other observations

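The 27 genes with shares above 50% and under 1.3 conversions per T>C read, a set chosen after values were seen, were also followed in the PladB libraries. Their median share was 60.79% with DMSO and 58.8% with PladB, and for 21 of 27 the PladB share was at least 80% of the DMSO share, with a median ratio of 0.956. For the other 200 genes with shares above 50% the medians were 61.59% and 28.39%, with a median ratio of 0.478, and 21 of 200 reached that level. Both sets were chosen on their DMSO shares, so their DMSO values are high by choice. The median gene of all members had 9.195% with DMSO and 4.11% with PladB. SRP14, with 70.28% ± 1.78 in DMSO, had 74.11% ± 0.0733 with PladB, and C1QBP, a mitochondrial protein, 67.44% ± 2.85 and 64.51% ± 4.25 (SD, n = 3 each).

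Some genes with many reads differed widely between the DMSO libraries. PRELID1, a mitochondrial lipid transfer protein with 5119 reads, had shares of 17.99%, 62.09% and 54.66%, with 1.052 conversions per T>C read. B3GALT6, a galactosyltransferase with 960.7 reads, had 11.78%, 40.64% and 4.751%, and INHBB, an inhibin subunit with 801 reads, 37.8%, 69.22% and 38.27%.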
